A study of Drosophila melanogaster with 2 samples.

Results

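The stretch of chromosome 2R from Nadk1a to fand was examined in a chromatin immunoprecipitation and sequencing experiment on the basic helix-loop-helix repressor E(spl)m5-HLH. Its 6 member genes, of 13945 protein-coding genes in the annotation, are Nadk1a, Nadk1b, Roe1, link, CG42807 and fand. They were chosen by the number of peak summits around them, as neighbours in the densest window of summits outside the Enhancer of split complex. The window runs from 5 kb before the first member to 5 kb after the last, at 2R 13532371 to 13601557 on dm6, a length of 69.2 kb. It held 23 of the 2487 peaks that passed the authors' reproducibility threshold, called thresholded here, and 64 of their 30000 pooled candidate peaks. The 23 thresholded summits are numbered as sites 1 to 23 from the lowest coordinate.

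The 2 samples form 1 group, biological replicates 3 and 4 of whole Drosophila melanogaster embryos collected at 0 to 12 hours, with males and females pooled. Both carried E(spl)m5-HLH with GFP at its C terminus, from 1 stable transgenic line, whose driving promoter and insertion site the labels do not state. Chromatin was sonicated to 200 to 800 bp. The assay title and antibody label describe an immunoprecipitation, whereas the free text of both samples speaks of an input control, and this was not resolved. No sample without the tag was used here, the read depth of the lists is unknown, and whole embryos give no value for single cell types.

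E(spl) proteins are transcriptional repressors induced by Notch signalling. They bind E-box-like sites and recruit the corepressor Groucho, and in the embryo they restrict neural fate. The members have other known roles. Nadk1a and Nadk1b encode NAD kinases, enzymes that turn NAD into NADP. Roe1 encodes a GrpE-type nucleotide exchange factor of the mitochondrial Hsp70 chaperone, and fand encodes a component of the Prp19 complex, which acts in the spliceosome and is needed for splicing of early zygotic transcripts. No role is stated here for link or CG42807.

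The name "link and fand" describes the summits only in part. One thresholded summit lay at link, and the closest to fand was 6603 bp from its start site. Most summits lay between link and the body of the overlapping genes CG6191 and CG45088, a part of the window whose only member gene is CG42807. The first thresholded summit was site 1 in Nadk1a and the last was site 23, so the flank on each side of the members held none.

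Thresholded summits stood at 3.32 per 10 kb in the window, against 0.184 per 10 kb over the rest of the main chromosome arms. Of 1932 consecutive tiles of the same length, 905 held no thresholded summit, the median was 1 and 9 tiles held 10 or more. Since the window was chosen for its count, these values describe it and are no test. Candidates of any strength were also dense, at 9.25 per 10 kb against 2.24 elsewhere. Of the 64 candidates, 23 (35.9%) passed the threshold, against a background of 8.29% of all candidates, a comparison that the choice of window fixes. Both replicates placed many candidates here, with 58 in replicate 3 and 57 in replicate 4, of which 20 and 21 were among the 2487 strongest of their own list.

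**Figure D1:**
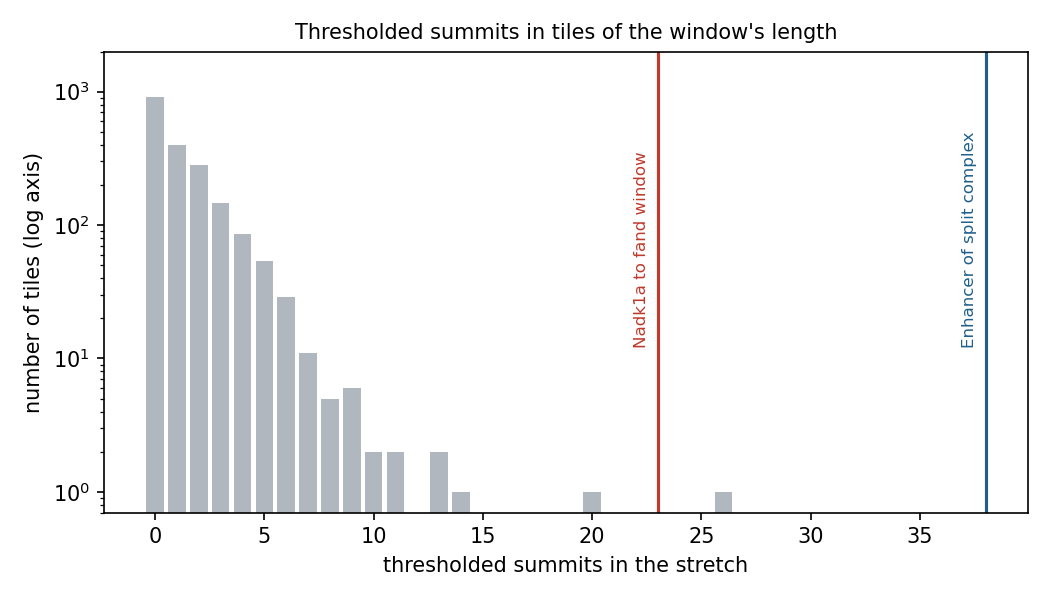
Number of thresholded summits (horizontal axis) in 1932 tiles of 69.2 kb across the main arms, with the number of tiles on a log axis. The red line marks the 23 summits of the window and the blue line the 38 of the Enhancer of split complex with 5 kb on each side, a stretch of 62.3 kb; the tile at 20 and the tile at 26 are cut from the grid and need not match either stretch.

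A member counted as bound when a thresholded summit fell no more than 1 kb from any of its start sites. This held for 2 of the 6, link and Nadk1a. The background is 11.9% of protein-coding genes (1653 of 13945). With 6 genes picked for the summits around them, the count is a description. Allowing 2 kb added Roe1 and CG42807, so that 4 were counted, and only link remained when a gene was given its outermost start alone.

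The summit at link was the only thresholded one outside Nadk1a that lay within 250 bp of a start site in the window. Site 3, at 2R 13555847, was 102 bp upstream of the link start site, in the 342 bp of intergenic DNA between the end of Roe1 and link. Its pooled signal was 194.9 (rank 874). Replicate 3 gave it a signal of 87.4 (rank 1309) and replicate 4 a signal of 127 (rank 509), so it was among the 2487 strongest in both. Since Roe1 and link point the same way, the summit sat 241 bp past the 3' end of Roe1 and 1770 bp from its start. At the Roe1 start itself a candidate lay 28 bp away, with a pooled signal of 58.4 (rank 8237) and ranks of 15014 and 15635 in the replicates, below the threshold.

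Nadk1a runs on the minus strand over 10.2 kb and has 5 annotated start sites. Its 2 thresholded summits lay in introns near the 2 starts closest to its 3' end. Site 1 was 128 bp upstream of the start at 2R 13539668, with a pooled signal of 116.7 (rank 2402), and ranked 4569 in replicate 3 and 2220 in replicate 4. Site 2 was 710 bp upstream of the start at 2R 13540797, with a pooled signal of 143.3 (rank 1613) and replicate ranks of 1920 and 1745. Both were below the median pooled signal of the list, 161.6. Only site 1 was near the threshold, and it was beyond the 2487 strongest of replicate 3. At the 3 starts further upstream the nearest candidates were below the threshold. The one 157 bp from the start at 2R 13545449 had a pooled signal of 103.4 (rank 3004), and its replicate ranks were 1861 and 7706. The candidates at the other 2 upstream starts had pooled signals of 56.6 and 34.1.

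Nadk1b and fand had no thresholded summit within 2 kb. Around the 4 start sites of Nadk1b the nearest candidates had pooled signals between 34.3 and 44.9. The highest of these, 81 bp from the outermost start, ranked 3220 in replicate 4 and had no candidate of replicate 3 within 100 bp. For fand, the nearest candidate was 129 bp from the start, with a pooled signal of 42.3 (rank 14895), and neither replicate had a candidate within 100 bp of it. The fand start faces that of CG6191 and CG45088 across 304 bp. A stronger candidate, with a pooled signal of 72.7 (rank 5594), lay 173 bp from the start shared by CG6191 and CG45088 and 478 bp from that of fand, and ranked 17792 and 5039 in the replicates.

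**Figure D2:**
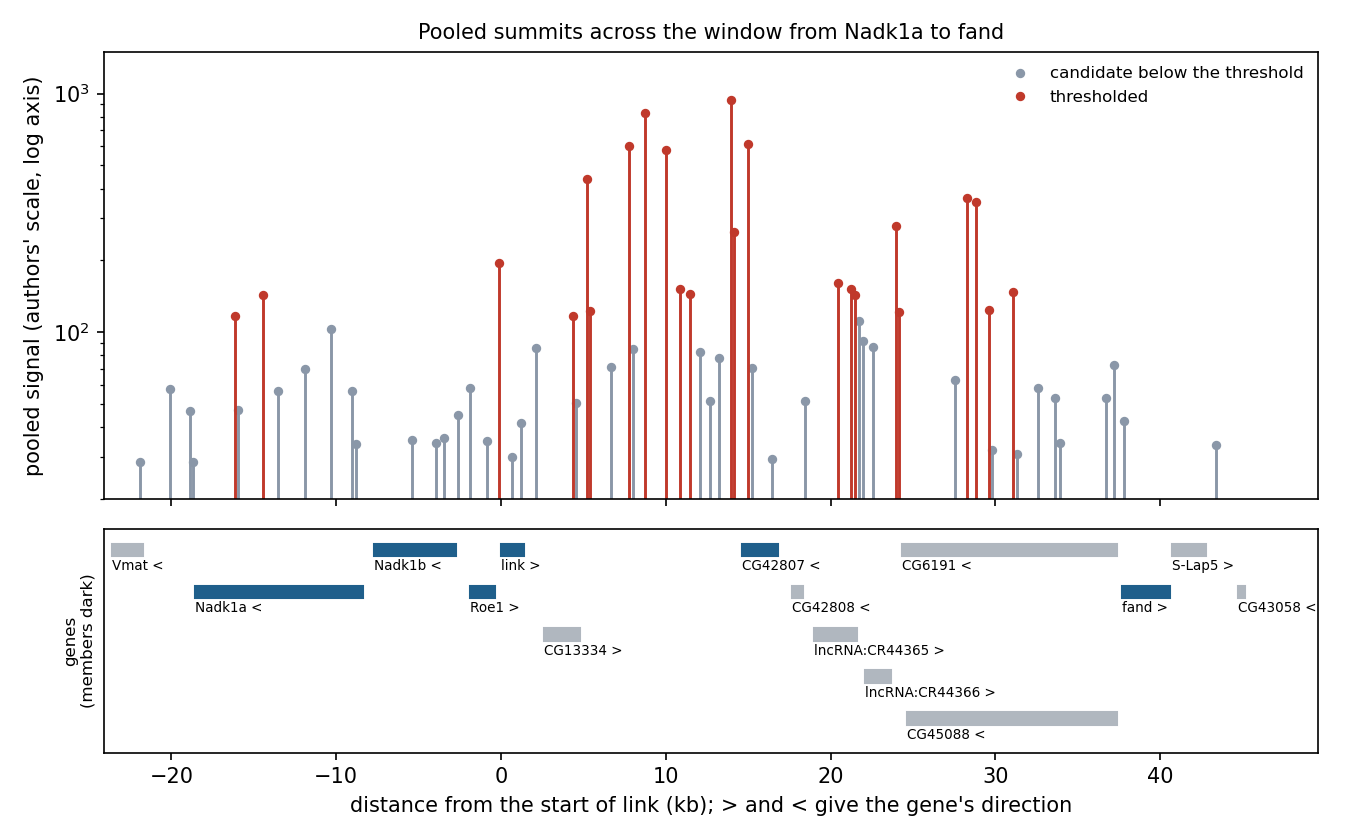
Pooled signal (log axis) of the 64 candidate summits against the distance from the start of link in kb, with the 23 thresholded summits in red and genes drawn to scale below, members dark; the tRNA and snoRNA genes are not drawn. The tallest lines, up to 942.8, lie to the right of link, and the stretch over Nadk1b and Roe1 shows grey lines only.

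CG42807 was the nearest gene for 6 thresholded summits, more than any other member, yet none lay within 1 kb of its 2 start sites. The only candidate within 1 kb of them had a pooled signal of 29.5 (rank 28248). The summits stood at and beyond its 3' end. Site 14, at 2R 13570967, fell in the 3' UTR, 1577 bp from the nearer start, with a pooled signal of 616.0 (rank 55), and ranked 57 in replicate 3 and 77 in replicate 4. Site 12, at 2R 13569883, lay 712 bp past the 3' end and was the strongest of the window, at 942.8 (rank 17). Its signal was 458.1 in replicate 3 (rank 23) and 507.1 in replicate 4 (rank 16), so it was near the top of both lists. Site 13, 199 bp from it and inside the same deposited peak of 1088 bp, had a pooled signal of 262.6 and ranks of 325 and 1248.

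The stretch between CG13334 and CG42807 held 9 thresholded summits in 9.83 kb, or 0.916 per kb. CG13334 is on the plus strand and CG42807 on the minus strand, so this intergenic DNA lies between 2 converging 3' ends and has no annotated start site. The 9 summits were 2462 to 6567 bp from the nearest start site, and their median pooled signal was 440.1. Site 8, at 2R 13564704, had a pooled signal of 831.9 (rank 27), with 350.8 in replicate 3 (rank 47) and 480.0 in replicate 4 (rank 18). Site 7, 962 bp before it, had 605.3 (rank 57). It ranked higher in replicate 3 (rank 35, signal 387.9) than in replicate 4 (rank 110, signal 237.0). Site 9 had 580.3 (rank 65), with 262.7 and 324.1 in the replicates (ranks 104 and 52). Site 5, at 2R 13561162 and 394 bp past the end of CG13334, had 440.1 (rank 134), with 233.8 and 229.5 (ranks 138 and 125). These 4 sites and site 12 were each at rank 138 or better in both replicates. The other 4 summits of the stretch, sites 6, 10, 11 and 13, were weaker, with pooled signals between 122.4 and 262.6. Site 4, at the 3' UTR of CG13334 just before the stretch, had 117.3 (rank 2383).

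A second group of 5 summits, sites 15 to 19, lay between CG42808 and CG6191, where 2 long non-coding RNA genes are annotated. Sites 15, 16 and 17 fell in the exon of lncRNA:CR44365, with pooled signals of 161.2, 151.7 and 143.4. Sites 16 and 17 were also 839 and 615 bp upstream of the start of lncRNA:CR44366, the only non-member gene of the window counted as bound. Sites 18 and 19 lay 285 and 485 bp past the end of lncRNA:CR44366. Site 18 was the strongest of the group at 279.7 (rank 408), with signals of 141.5 and 131.7 in the replicates and close ranks of 480 and 474. It was 402 bp from the 3' end of CG6191.

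The last 4 summits, sites 20 to 23, lay in introns shared by CG6191 and CG45088, 6185 to 7501 bp from the nearest start site. Sites 20 and 21 were 578 bp apart, with pooled signals of 365.5 (rank 212) and 351.5 (rank 236). Replicate 4 ranked them higher than replicate 3 did, at 109 and 182 against 314 and 351. Sites 22 and 23 were weaker, at 123.4 and 147.8, and were ranked 5878 and 3487 in replicate 3 but 1143 and 1343 in replicate 4. Beyond site 23 no thresholded summit was found up to the window's end, across the promoter and body of fand.

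The summits of the window were mostly far from start sites. Of the 23, 5 (21.7%, 95% Wilson interval 9.66 to 41.9, counting error only) were within 1 kb of a start site of any gene. The share was 60.2% over the whole thresholded list and 78.9% (30 of 38) in the Enhancer of split complex with 5 kb on each side. More than 5 kb from any start lay 9 of the 23 (39.1%), against 13.7% of the whole list and 0 of 38 in the complex. The median distance was 2617 bp in the window, 365 bp in the complex and 514 bp over the list. Over the whole window 19 genes had a start site, 13 of them protein-coding, where the median tile held 9 genes. The starts were unevenly spread. None lay between those of CG13334 (2R 13558545) and CG42807 (2R 13572544), or between those of lncRNA:CR44366 (2R 13578036) and CG6191 (2R 13593339). No test of these differences was made, since the window is 1 stretch picked for its summits.

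**Figure D3:**
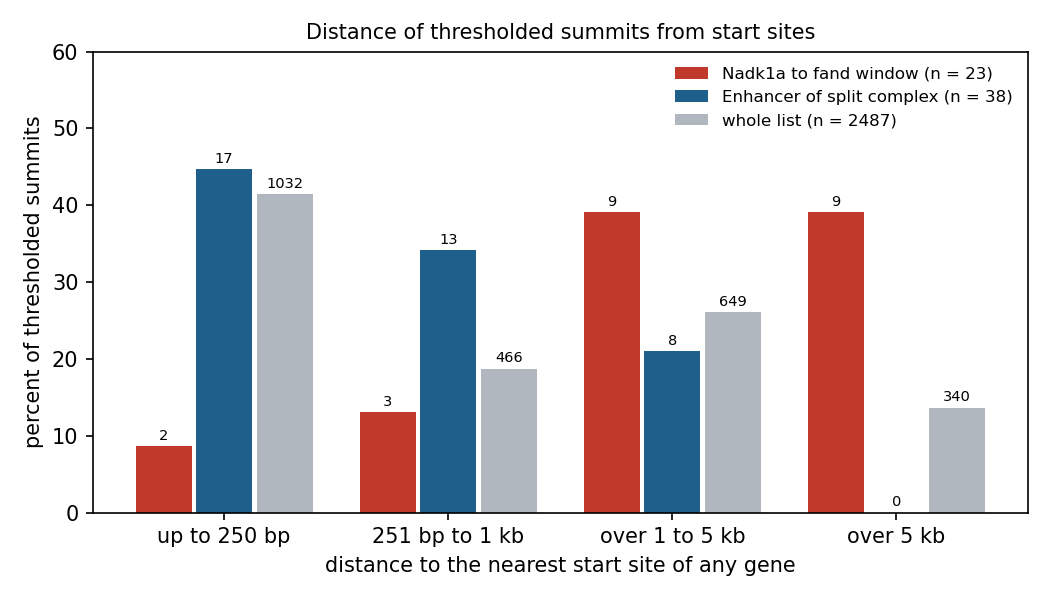
Percent of thresholded summits (vertical axis, from 0) by distance to the nearest start site of any gene, for the window, the Enhancer of split complex and the whole list, with the number of summits above each bar. The window has 9 of 23 summits in each of the classes beyond 1 kb, and the complex has 0 beyond 5 kb.

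By annotation, 12 of the 23 summits (52.2%) were intergenic, 6 (26.1%) intronic, 3 in the exon of lncRNA:CR44365 and 2 in 3' UTRs. None fell in a 5' UTR or a coding exon, classes that held 15.7% and 1.05% of the whole list. Summits in 3' UTRs made up 1.01% of the whole list (25 of 2487), and 2 of those 25 were sites 4 and 14.

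Spacing within the window was short, and uneven. The median distance between neighbouring thresholded summits was 923.5 bp, close to the 909 bp of the Enhancer of split complex. The longest gap, 14340 bp, ran from site 2 to site 3 over the upstream part of Nadk1a and all of Nadk1b and Roe1. Of the 22 spacings, 12 were under 1 kb and 4 were under 250 bp. Sites 5 and 6 share a deposited peak of 860 bp, and sites 12 and 13 share one of 1088 bp. Joining summits within 500 bp left 19 sites. The 23 peaks together covered 9515 bp, or 13.8% of the window, against 25.7% of the complex.

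Signal in the window spread from ordinary to very high. The lowest pooled signal was 116.7, the median 161.2 and the highest 942.8, where the whole list had a median of 161.6. The middle of the distribution was thus that of an average site, and the upper part was not: 5 of the 23 were among the 100 strongest peaks of the genome and 10 were among the 621 strongest. The Enhancer of split complex had a median of 373.7, with 12 of its 38 summits among the 100 strongest. In pooled signal, 8 sites stood at 351.5 or more (sites 5, 7, 8, 9, 12, 14, 20 and 21) and the next, site 18, was at 279.7.

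The replicates were compared next. With candidates matched within 100 bp of the pooled summit, 17 of the 23 sites had a candidate in both replicates (73.9%), against 92.6% of the whole list. Among the 2487 strongest of both replicates were 13 of the 23 (56.5%, 95% Wilson interval 36.8 to 74.4), against a background of 58.0% of the whole list. Over the 17 matched sites the signals of the replicates had a Spearman rho of 0.868, and a Pearson r of 0.877 after log2 transformation. Both describe sites of 1 pair of libraries, with a few strong sites setting the range, and the same measures were 0.469 and 0.573 over all 2302 matched sites. Summit positions in the replicates differed by a median of 30 bp and at most 85 bp, against 26.5 and 178 bp over the whole list. The match within 100 bp limits these differences, and sites without a match in both replicates are left out. Replicate 4 ranked 13 of the 17 higher (76.5%), and 56.6% of matched sites over the whole list.

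**Figure D4:**
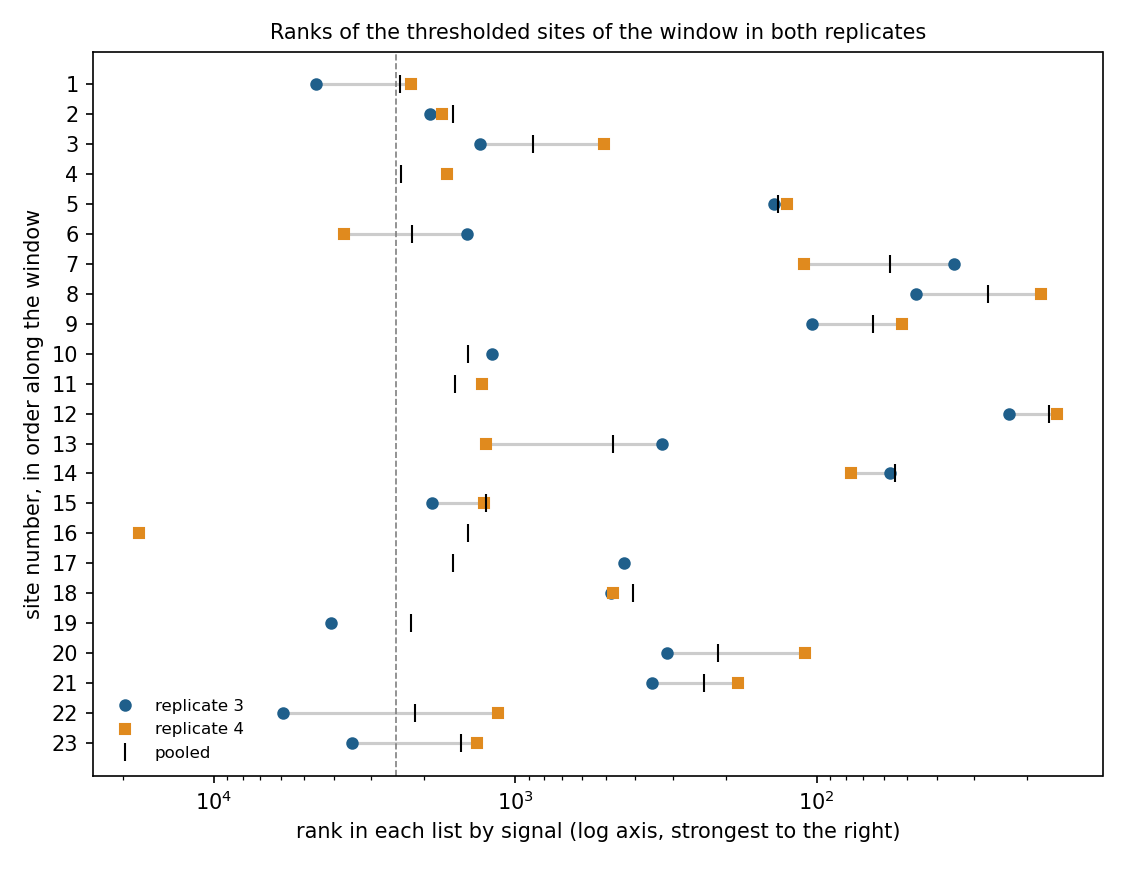
Rank of each thresholded site of the window in the replicate 3, replicate 4 and pooled lists (log axis, strongest to the right), with the dashed line at rank 2487 and a grey line joining replicates where both have a candidate within 100 bp. Sites 5, 7, 8, 9, 12 and 14 rank at 138 or better in both replicates, and sites 16, 17, 19, 4, 10 and 11 lack a mark for 1 replicate.

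Of the 6 sites that lacked a match, 4 had a candidate of the other replicate 112 to 167 bp away. Site 4 had its nearest candidate of replicate 3 at 167 bp and site 11 at 112 bp, while site 10 had its nearest candidate of replicate 4 at 114 bp and site 19 at 149 bp. Not all of these were their own: the candidate near site 19 is the one matched to site 18, and that near site 4 is matched to the pooled candidate at 2R 13560517 (rank 10708). Within 200 bp, and with such sharing allowed, 21 of the 23 had a candidate in both replicates. Sites 16 and 17, 224 bp apart, were the other 2. Site 17 had a signal of 146.9 in replicate 3 (rank 437) and no candidate of replicate 4 nearer than 228 bp. Site 16 had 22.0 in replicate 4 (rank 17692), and the nearest candidate of replicate 3 was the one at site 17, 218 bp away. A candidate of replicate 4 with rank 1682 stood near the next pooled summit, at 2R 13577693, which was just below the threshold.

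**Figure D5:**
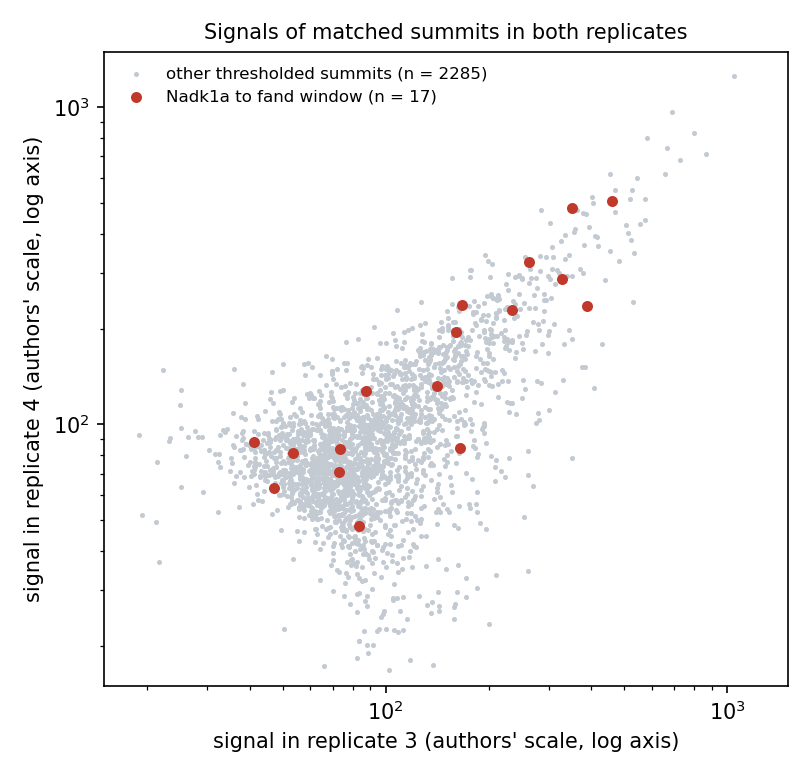
Signal in replicate 3 against signal in replicate 4 (both log axes, authors' scale) for 2302 thresholded sites matched within 100 bp in both, with the 17 of the window in red. The red points run from 41.2 (site 22) to 458.1 (site 12) in replicate 3 and from 47.8 (site 6) to 507.1 (site 12) in replicate 4.

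At the threshold, the window's weakest thresholded summits were site 1 at 116.7 (rank 2402) and site 4 at 117.3 (rank 2383). Just outside it were the candidate at 2R 13577693, with 111.6 (rank 2595), and that at 2R 13545606 in Nadk1a, with 103.4 (rank 3004). In all, 41 candidates of the window were below the threshold, with a median pooled signal of 51.5. Of these, 24 (58.5%) were within 1 kb of a start site. A candidate in both replicates was found for 16 of the 41, in 1 replicate for 21 and in neither for 4. The same shares over all candidates below the threshold are not given here, so these counts only describe the window. Roe1, Nadk1b, CG42807, CG42808 and fand each had such a candidate 28 to 144 bp from the start site closest to one; the candidates nearest to the other start sites of Nadk1b and CG42807 were up to 547 bp away.

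Sequence around the summits was searched on both strands, within 100 bp, for 9 short motifs. CACGTG, a site described for E(spl) proteins, was found at 3 of the 23 sites (13.0%), against 5.79% of the whole list and 2.36% of 201 bp tiles of the main arms. In the Enhancer of split complex it was at 9 of 38 (23.7%), and among the window's candidates below the threshold at 3 of 41 (7.32%). The 3 thresholded sites of the window were sites 5, 7 and 8, all in the stretch between CG13334 and CG42807. The motif covered the summit base itself at site 5, and it was 22 bp away at site 7 and 78 bp at site 8. At sites 7 and 8 it was part of GGCACGTG, which holds CACGTG and was found at 2 of 23 sites, against 1.29% of the whole list and 0.343% of tiles. CACGCG, a related site, was found at 1 of 23 (4.35%, against 9.81% of the list and 3.69% of tiles). It was 5 bp from the summit of site 9, in the same stretch. Within 100 bp, 4 of the 8 strongest sites held CACGTG or CACGCG, and 0 of the other 15 did. The split at 8 was made after the values were seen, so these counts are a description. They also depend on the limit. Within 250 bp, CACGTG was at 4 sites, since the weaker site 6 is 207 bp from site 5, in the same deposited peak. Sites 12 and 14, the strongest and the third strongest, held neither.

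Most copies of these motifs in the window were not at thresholded summits. Of 16 CACGTG in the 69.2 kb, 3 were within 100 bp of one, and the density was 2.31 per 10 kb against 1.23 over the main arms. One covered the summit base of the candidate at 2R 13558054 (rank 4174), which lies 1 bp from the start of a snoRNA gene. A CACGCG likewise covered the summit of the candidate at 2R 13545606 in Nadk1a (rank 3004).

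Other motifs were few. CACNAG, the N box, was at 4 of 23 sites (17.4%), against 26.3% of the list and 22.8% of tiles. CAGCTG, an E box bound by proneural proteins, was at sites 12 and 13, as 2 separate copies (8.70%, against 16.2% of the list and 8.39% of tiles). CAGGTAG, which the early embryonic activator Zelda binds, was at sites 3 and 13 (8.70%, against 2.57% and 1.09%). The summit upstream of link held 2 copies, 6 and 87 bp from it. GAGAGAG was at sites 22 and 23 (8.70%, against 9.61% and 2.45%). The promoter elements TATCGATA and GGTCACACT were at 0 of 23, and they stood at 2.77% and 1.37% of the list and at 0.564% and 0.201% of tiles. A match shows only that these letters are there. GC content had a median of 45.3% at the 23 sites (range 33.3 to 50.7) and 43.3% over the list. In the reference, 14.0% of the window was marked as repeat, against 20.1% of the main arms, and 13 of the 23 sites had no such base within 100 bp. The 2 annotated transposon fragments, of INE-1 and jockey, were 556 and 467 bp from the nearest thresholded summit.

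Genes that work with the members elsewhere in the genome were mostly not bound within 1 kb, as is the case for most genes (background 11.9%). The members themselves are left out of these counts. Of 7 other matched Prp19 complex genes, 1 was bound, BCAS2, with a summit 440 bp away, a pooled signal of 348.3 (rank 241) and replicate ranks of 299 and 258. Of 5 other matched genes of the mitochondrial Hsp70 import motor and the translocase it works with, 0 were bound. Of 9 other matched genes that make or use NAD and NADP, 0 were bound. The Wilson intervals of these 2 shares went up to 43.4% and 29.9%. Nadk2, another NAD kinase gene, had a strong summit of 594.8 (rank 61) at 2338 bp from its start. Zw, the glucose-6-phosphate dehydrogenase gene, had one of 316.8 (rank 303) at 1109 bp. One listed symbol of each list, Isy1, Tim44 and Nnt, was not matched.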

How the data were processed

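The members, gene lists and motifs were chosen with earlier results of these data known. Per the deposited text files, the authors made candidate lists from replicate 3, from replicate 4 and from their pool, with 1 control alignment in common (dm6). Irreproducible discovery rate thresholding of these 3 lists gave the thresholded list. For its threshold, the aligner, the peak caller and the depth, the sources used here give nothing. The deposited signal was computed by the authors for every peak, in an unstated unit. Its size was compared within a list only, and the replicates were compared through ranks and correlations. The deposited −log10 q was the same in all thresholded peaks and was not used for ranking. The thresholded list equalled the 2487 pooled candidates of highest signal.

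A summit is the peak start plus the deposited offset, given 1-based. Start sites came from Ensembl release 115 (same assembly, transposons left out), and sequence from the RefSeq copy, whose chromosome lengths held every peak. When several replicate candidates lay within 100 bp of a summit, the strongest was taken. Wilson intervals at 95% cover counting error only. No test was run: there is 1 group, and the rule used the summits. The functions were tested on simulated summits. Genes named are the 6 members, the other genes nearest to thresholded summits, and the bound genes of 3 lists; Nadk2, Zw and neighbours of weaker candidates were named after their values were seen. Alternatives were the 1243 strongest peaks, each replicate alone, merging within 500 bp, other flanks, distances, match limits and motif windows. Scripts ran in Python 3.11.15 with pandas 2.3.3, numpy 2.4.6, matplotlib 3.10.9 and scipy 1.17.1.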

Additional observations from a re-analysis of the deposited data

How the results depend on the processing

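Of 37 alternative values of the main results, 28 stayed within 1.5 times the reported count or median, or within the exact 95% interval of the reported share. Of 26 for single motifs and nearest genes, 16 did. Flanks of 1 and 10 kb could change nothing, since they held no thresholded summit. With 23 sites the exact interval of a share is wide, so that 8.70% and 9.09% counted as within that of 21.7%. Both are below the narrower Wilson interval given above, 9.66 to 41.9. With the 1243 strongest peaks the window held 11 summits, 1 bound member (link), a median signal of 440.1 and a median spacing of 1926.5 bp, since fewer peaks enter. Each replicate alone gave 20 and 21 summits and 2 bound members, and a median signal from 88.2 to 144.2, on scales that differ from the pooled one. Merging within 500 bp moved the spacing to 1388.5 bp. Bound members were 4 within 2 kb and 1 from outermost starts. Matching within 200 bp gave 91.3% of sites in both replicates, some sharing a candidate with a neighbour. The share within 1 kb of a start ranged from 9.09% to 21.1% under the peak alternatives, and was 8.70% at 500 bp and 39.1% at 2 kb. When nearest genes were limited to coding ones, the 8 sites of the long non-coding genes passed to CG42808 (5 sites) and to CG45088, which rose from 1 to 4. Motif windows of 250 bp raised CACNAG from 4 to 9 sites, CAGGTAG from 2 to 5, and CAGCTG and GAGAGAG from 2 to 4 each; with 50 bp, GGCACGTG and CAGCTG fell from 2 to 1 each. No paired analysis was possible because the 2 samples form 1 group. With depth unknown, a missing summit cannot be read as absent binding.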

Other observations

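Windows of the same length placed on every thresholded summit give the context of the Nadk1a to fand stretch. The highest count outside the Enhancer of split complex was its 23, a place that the choice of window fixes. Next came 15 in a window on 2L that starts at 2163652 and 14 on 3L around the Bearded family genes Brd, Ocho and Tom. In these 2 windows, 6 of 15 and 7 of 14 summits were within 1 kb of a start site, and 1 and 3 were beyond 5 kb. After them came windows on 2R that start at 12928379 and 18609092, with 12 summits each. Each of these had 5 summits within 1 kb of a start site, and they had 4 and 0 beyond 5 kb. With all pooled candidates in place of thresholded ones, the best placed window over the stretch, from 2R 13532198, held 65 and came after the complex (74), a window on 2L that includes noc, a zinc finger gene (70), and one on 3L (68). By the strongest 2487 peaks of either replicate alone the stretch was second to the complex, with 20 and 21. The pooled list was made from the same 2 replicates, so this is no independent support.

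Site 16 had a pooled signal of 151.7 (rank 1428), whereas the only replicate candidate within 100 bp, in replicate 4, had 22.0 (rank 17692). Site 17 had a pooled signal of 143.4 (rank 1610) and, on that replicate's own scale, 146.9 in replicate 3 (rank 437). The 2 pooled summits are 224 bp apart, and how the caller divided the signal between them was not tested.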
